A study of Mus musculus with 5 samples.

Results

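The entries described here are 990 of the 196406 piRNA entries listed in at least 1 of 5 mouse germ cell and embryo libraries, and they were led by primordial germ cells, the fetal precursors of sperm and egg. They were chosen by their reads in these same libraries. Reads of each entry were scaled to 1000000 reads of the library's piRNA table (RPM), and oocyte and zygote were averaged into 1 value, which left 4 values per entry. An entry was taken where it had 100 or more reads over the 5 libraries, carried no chrM (mitochondrial) mark in its name, and had 60% or more of the sum of its 4 values in primordial germ cells. Of 11444 entries with enough reads and no chrM mark, 2454 (21.4%) had their highest value in primordial germ cells, and 990 of these met the share of 60%. Since the rule used the level in primordial germ cells against the other libraries, those differences are given below as descriptions and support nothing.

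The study sequenced small RNAs of 18 to 32 nucleotides from 5 kinds of cell, with 1 library for each. Primordial germ cells came from male gonads of CD-1 fetuses of 13.5 days and were drawn out with magnetic beads against CD15, a surface sugar of these cells. Spermatogonia came from CD-1 testes 8.5 days after birth, where somatic cells were left to settle and stick, and spermatozoa came from the cauda epididymis and vas deferens of mature CD-1 males. Metaphase II oocytes (15210 cells) came from superovulated C57BL/6 females, and zygotes (15416 cells, 15 to 18 hours after fertilization) from C57BL/6 mothers and DBA/6J fathers, also after hormone injection. Primordial germ cell purity was judged by alkaline phosphatase staining and that of spermatogonia by the presence of Stra8 and absence of Fn1, per the labels' protocols. Whether cells of several animals were pooled is not given in the sources used here. Strain, sex and preparation therefore differ between the male germ line and the egg libraries and cannot be told apart from cell type. Among the male libraries, age and preparation differ too and cannot be told apart from cell type either. With 1 library per group there is no spread between samples and no test.

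PIWI-interacting RNAs (piRNAs) are small RNAs that PIWI proteins carry in the germ line, where they guide the silencing of transposons. In the male mouse the set of piRNAs is known to turn over with age. Fetal germ cells make piRNAs largely from transposon sequence around the time when DNA methylation is laid down anew, with the PIWI proteins MILI and MIWI2, while germ cells in meiosis make another set from long intergenic clusters, with MIWI. Primordial germ cells at the stage sampled here are at or just before the onset of the fetal set.

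Total piRNA reads per library lay between 5820204, for primordial germ cells, and 18212803, for spermatozoa. The 5 most abundant entries of each library, which took 15.8% to 53.7% of its piRNA reads, included none of the 990. The list of 10 miRNAs of pluripotent cells and primordial germ cells (from the miR-290 and miR-302 clusters, 9 matched by name) summed to 28362 reads per 1000000 miRNA reads in primordial germ cells with none at 0, against 1328 in spermatogonia and 55.9 in spermatozoa, with 4051 for oocytes and 9047 for zygotes. Markers of smooth muscle and peritubular cells (miR-143-3p and miR-145a-5p) summed to 9259 in primordial germ cells and to 233042 in spermatogonia, and those of gonadal soma (both arms of miR-202) to 1734 and 14981. In spermatozoa the smooth muscle markers summed to 230738, those of red blood cells to 16371 and those of leukocytes to 3047, while the list for later spermatogenesis (miR-34b-3p, miR-34c-5p and miR-449a-5p) summed to 231417 there and to 3187 in primordial germ cells. Across oocytes and zygotes the smooth muscle markers summed to 26554 and 20989. The neuron list (miR-124-3p and miR-9-5p) summed to 3717 in primordial germ cells and 134 in spermatogonia. In primordial germ cells and spermatogonia the markers of endothelium summed to 1051 and 9053, those of red blood cells to 100.5 and 1302, and those of leukocytes to 540 and 263. None of the markers of these other cells was at 0 in either library. The part of other cells in the piRNA levels was not tested, and fewer cells of a type cannot be told apart from less RNA per cell.

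As a group, the members took 18.0% of the piRNA reads in primordial germ cells [17.97 to 18.03], 4.80% in spermatogonia and 0.852% in spermatozoa, with 0.883% for oocytes and 0.888% for zygotes. Brackets here and below are exact 95% intervals, which cover counting error only. The reads were concentrated on few entries: 30 members held 50% of the 1047543 member reads in primordial germ cells, and the 10 largest held 28.8%. The median member had 180 reads there, or 31.0 RPM, within a range of 6.85 to 10820 RPM. Median levels in the other libraries were 8.56 RPM in spermatogonia and 1.19 in spermatozoa, with 0.925 for oocytes and 1.03 for zygotes. Of all reads in the 4 reported classes of small RNA together, the members took 3.94% in primordial germ cells, 1.30% in spermatogonia and 0.711% in spermatozoa, with 0.296% for oocytes and 0.196% for zygotes.

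Entries are known here by name only. The tables print no sequence, length or position for them, so no sequence is shown and neither the transposon or gene of origin nor the first base was analysed here. Names are of 2 kinds, PIR numbers and mmur numbers. Among the members 770 (77.8%) had mmur names, against 59.6% of all 11444 entries, 78.0% of the 3032 entries led by spermatogonia in the same way, 17.3% of the 1206 led by spermatozoa and 4.83% of the 1739 led by oocyte and zygote. Entries led by the early male germ line were thus mostly mmur entries, and those led by spermatozoa or the egg were mostly PIR entries. The 220 PIR members still held 36.6% of the members' reads in primordial germ cells.

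The member with the most reads, PIR64616, stood at 10820 RPM in primordial germ cells, 1580 in spermatogonia and 395 in spermatozoa, with 63.3 for oocytes and 159 for zygotes. Its level in primordial germ cells was 6.85-fold that in spermatogonia [6.71 to 6.99] and 170.9-fold that in the oocyte [160.1 to 182.6]. PIR75200 stood at 9133 RPM in primordial germ cells, with 2213 for spermatogonia, the highest level of any member there, and at 244, 244 and 230 in spermatozoa, oocyte and zygote. The last 3 libraries were nearly level for this entry, whereas PIR64616 differed widely among them. PIR59119 stood at 6014, 1979, 663, 606 and 231 RPM in the same order of libraries, and was the highest of all members in both spermatozoa and the oocyte.

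PIR58514 was the farthest below its primordial germ cell level in spermatozoa and oocytes of the 10 largest members, while PIR64616 was the farthest below in spermatogonia and zygotes. PIR58514 stood at 3977 RPM in primordial germ cells, 988 in spermatogonia and 4.47 in spermatozoa, with 17.8 for oocytes and 80.9 for zygotes. Its level in spermatozoa was 891-fold below that in primordial germ cells [719 to 1127], while PIR59119 was only 9.07-fold lower there [8.88 to 9.26]. The pair mmur000682862 and mmur001150299, whose numbers lie far apart, had near-equal courses of 4252, 1687, 63.7, 107 and 344 RPM and of 4239, 1663, 39.2, 104 and 336 RPM. Within this pair the levels nearly coincided in every library except spermatozoa. mmur000682862 had the highest level of any member in the zygote.

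**Figure D1:**
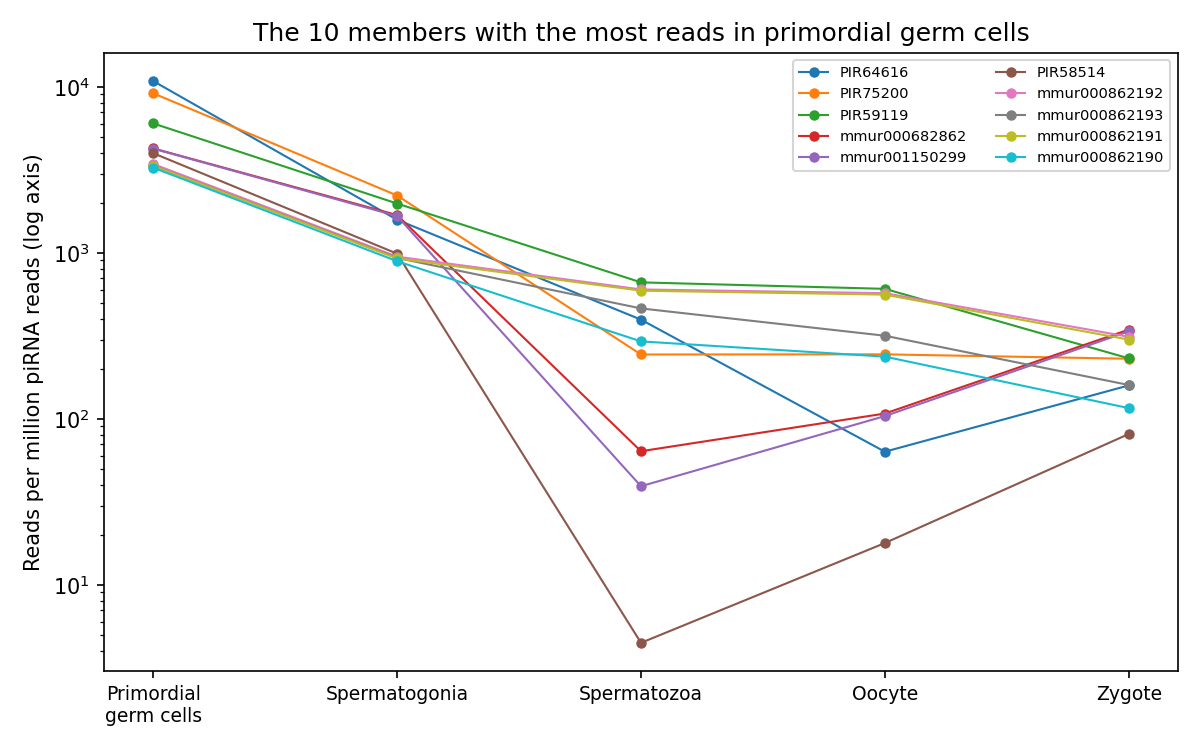
Level of the 10 members with the most reads in primordial germ cells, in RPM on a log axis, for each of the 5 libraries (1 library each, so no error bars); lines only link the points of 1 entry. All 10 were highest in primordial germ cells and next highest in spermatogonia (889 to 2213 RPM), while in spermatozoa they spread from 4.47 to 663 RPM.

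The other 4 of the 10 largest members, mmur000862190 to mmur000862193, are neighbours by number and belong to a run of 6 with mmur000862188 and mmur000862189. In primordial germ cells the run was nearly level, at 2617, 3011, 3254, 3335, 3425 and 3344 RPM from the lowest number to the highest, a 1.31-fold range. In spermatogonia it was also close to level, at 641, 755, 889, 924, 947 and 931 RPM. In spermatozoa the same 6 entries stood at 12.4, 48.2, 292, 591, 601 and 462 RPM, a 48.6-fold range, and in the oocyte at 34.7, 58.5, 237, 559, 570.6 and 316 RPM, a 16.5-fold range. The zygote followed the same order, at 19.3, 28.8, 116, 300, 312 and 160 RPM. Within 1 run, then, the first entries were low in gametes and the later ones higher, while all 6 had similar levels in primordial germ cells. The share of the sum in primordial germ cells went from 79.4% in mmur000862188 to 63.2% in mmur000862191. The next numbers that followed, mmur000862194 and mmur000862195, had fewer than 10 reads in any library.

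**Figure D2:**
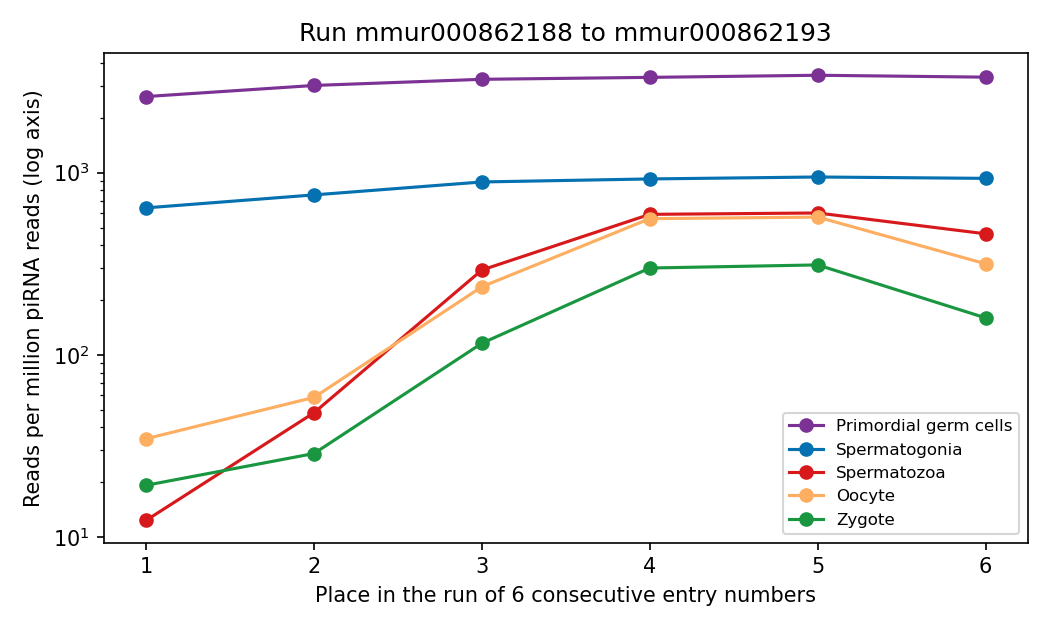
RPM on a log axis for the 6 entries of the run from mmur000862188 to mmur000862193, by their place in the run, with 1 line for each library. Levels in primordial germ cells (2617 to 3425 RPM) and spermatogonia (641 to 947 RPM) are nearly flat, while those in spermatozoa go from 12.4 to 601 RPM.

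The other leading runs differed from this one. The run PIR75197 to PIR75201 held PIR75200 and 4 entries of 905 to 1208 RPM in primordial germ cells, so that 1 entry stood 10.1-fold above the lowest of its neighbours there, but only 1.55-fold above in spermatozoa. Directly after it came PIR75202, which is no member: it stood at 24.2 RPM in primordial germ cells, 26.8 in spermatogonia and 546 in spermatozoa, with 63.1 for oocytes and 31.8 for zygotes. An entry led by spermatozoa thus adjoined by number a run led by primordial germ cells. The run mmur000791528 to mmur000791532 was flat in every library, at 1726 to 1732 RPM in primordial germ cells, 197 to 201 in spermatogonia, 61.4 to 62.6 in spermatozoa, 181 to 187 for oocytes and 113 to 114 for zygotes. For mmur000791531 of this run the oocyte lay close below spermatogonia, at 187 against 200 RPM.

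Runs of this kind made up much of the group. Counted as stretches of consecutive numbers, the 990 members fell into 513 runs, of which 158 held 2 to 16 members and 635 members in all. The 64.1% of members with a neighbour compare with 56.2% over all 11444 entries and 62.6% of entries led by spermatogonia. The share was 24.4% of those led by spermatozoa and 12.9% of those led by oocyte and zygote. A neighbour had to be in the same list, so the shares of a part and of all entries are not like measures. Within the 158 longer runs the highest member was a median of 1.23-fold above the lowest in primordial germ cells, and 1.43-fold to 1.51-fold in the other libraries. An entry with 100 or more reads that was no member lay directly beside 87 of the 513 runs (17.0%). Members of 1 run were not taken as separate measurements. Counted once per run, by the entry highest in primordial germ cells, mmur names made up 308 of 513 runs of members and 2699 of 6754 runs of all entries.

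Entries with distant numbers also had near-equal reads. Among 222 members with 500 or more reads in primordial germ cells, entries were linked where their reads in each library lay within 10% or 5 reads of each other. Links were chained, so that entries of a set could lie farther apart than this limit, as oocyte reads of the largest set did. Chaining gave 133 sets, most of them of a single entry. Of these sets, 29 held 2 or more entries (118 of the 222 members), and 13 spanned 2 or more runs (59 members). The largest had 20 entries of 4 runs (mmur000012588 to mmur000012590, mmur000042089 to mmur000042093, mmur000138461 to mmur000138470, and mmur000679787 with mmur000679788), each with 1441 to 1603 reads in primordial germ cells, 812 to 906 in spermatogonia, 28.8 to 31.6 in spermatozoa, 239 to 282 for oocytes and 288 to 324 for zygotes. PIR69350, PIR69351, PIR89432 and PIR274840 formed another set at 1814 to 1922 RPM in primordial germ cells, and mmur000623902 matched mmur000820445, at 2091 and 2095 RPM. Read numbers that are not whole were found for 91.0% of members and 84.9% of all 11444 entries in primordial germ cells. How the authors assigned reads with several matches is not given in the sources used here.

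Spermatogonia were the library closest to primordial germ cells for most members. The level in spermatogonia was the second highest of the 4 values for 823 members (83.1%), spermatozoa for 107 (10.8%) and the mean of oocyte and zygote for 60 (6.06%). Of the 1464 other entries that were highest in primordial germ cells without meeting the share of 60%, spermatogonia were second in 79.4%. That share is over single entries. With 1 entry per run of members, spermatogonia were second in 387 of 513 runs (75.4%) and spermatozoa in 85 (16.6%). The median member stood in spermatogonia at 29.8% of its level in primordial germ cells, with 5% of members under 1.37% and 5% over 54.4%. Medians were 2.58% in spermatozoa, 2.46% for oocytes and 3.63% for zygotes. The highest seen for spermatogonia was 64.2%, where the rule itself sets a ceiling. It was 58.9% for spermatozoa, 56.1% for oocytes and 90.0% for zygotes. For oocytes and zygotes the rule capped only their mean.

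Counted as at least 4-fold apart among entries with 100 or more reads over the libraries compared, 276 of 849 measured members were higher in primordial germ cells than in spermatogonia, where 5.34% of all 6315 measured entries were. Against spermatozoa it was 751 of 813 members (43.8% of all entries), against the oocyte 723 of 766 (42.6%), and against the zygote 732 of 753 (47.4%). The rule used these contrasts, and nothing is read from the counts. The median log2 ratio of spermatogonia to primordial germ cells was -1.74 over all 990 members and 0.69 over all 11444 entries, and it was -1.93 with 1 entry per run. With DESeq2's size factors, which shift every entry alike, the 2 medians were -2.69 and -0.26. The sign for the members was fixed by the rule.

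**Figure D3:**
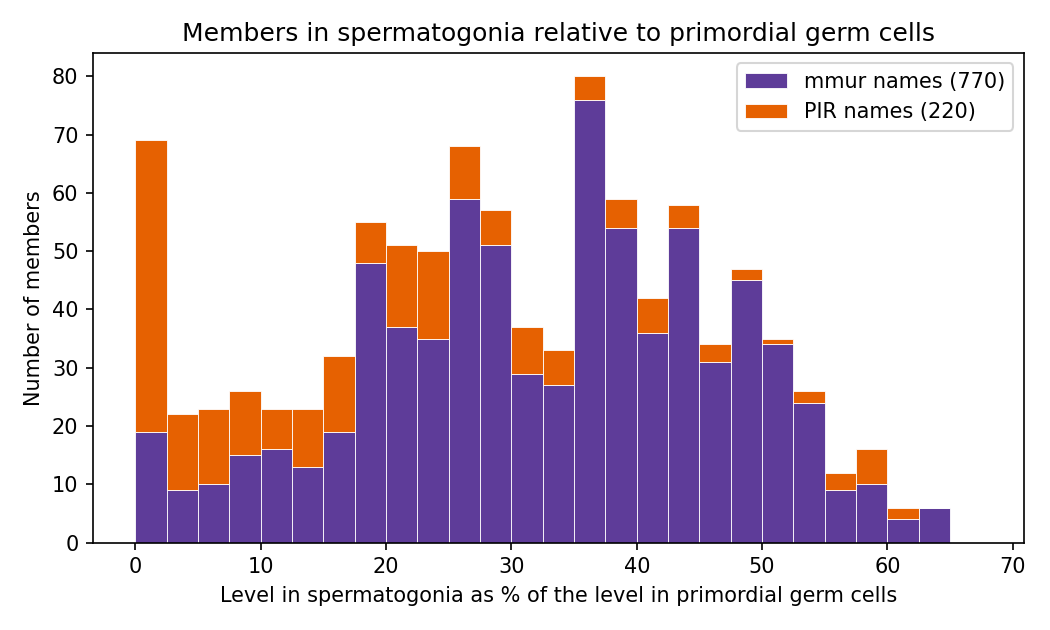
Number of members by their level in spermatogonia as a percentage of their level in primordial germ cells, in bins of 2.5 percentage points, with the 770 mmur and 220 PIR names stacked. The mmur members form a broad hump around their median of 34.7%, while PIR members pile up in the lowest bins, with 63 of 220 under 5%.

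The 2 kinds of name differed in this respect. The median mmur member stood in spermatogonia at 34.7% of its level in primordial germ cells and the median PIR member at 16.5%. Of the mmur members 28 (3.64%) were under 5% of that level, against 63 of the PIR members (28.6%). Over all measured entries with reads in primordial germ cells, members included, the shares were 0.588% of 6799 mmur and 13.8% of 3458 PIR entries. Among entries highest in primordial germ cells that were no members, they were 0.173% of 1153 mmur and 10.3% of 311 PIR entries. The kinds of name thus differed in the same direction among these. In spermatozoa the medians were 2.49% for mmur and 3.42% for PIR members. Spermatogonia were second in 690 of 770 mmur members and in 133 of 220 PIR members, while spermatozoa were second in 46 and 61. Among other entries highest in primordial germ cells, spermatogonia were second in 85.0% of 1153 mmur and 58.8% of 311 PIR entries. Such counts are over names, several of which may hold 1 set of reads. The rule did not use the kind of name, but it capped the level in spermatogonia, so the counts are descriptions.

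The 91 members under 5% in spermatogonia belonged to 76 runs and held 9.28% of the members' reads in primordial germ cells. Of these, 44 had their next level in spermatozoa, 39 in oocyte and zygote and 8 in spermatogonia. The entries named from here up to the comparison of zygote with oocyte were chosen after their values were seen. Entries of 3 runs of mmur names had similar courses, with the zygote next after primordial germ cells. mmur000696318 stood at 1241 RPM in primordial germ cells, 12.6 in spermatogonia and 4.56 in spermatozoa, with 21.8 for oocytes and 66.3 for zygotes. mmur000086557 stood at 1211, 9.52, 3.11, 20.1 and 63.9 RPM, and mmur000330806 at 392, 3.25, 1.52, 8.95 and 27.1 RPM. Of the 14 entries of these 3 runs, 9 stood 3.03 to 3.21 times higher in zygotes than in oocytes. The 5 others, at lower levels of 130.1 to 326 RPM in primordial germ cells, stood 1.79 to 1.98 times higher. Several entries within a run had near-equal reads, and mmur000696318 and mmur000086557 lay close in primordial germ cells, oocytes and zygotes. The 14 entries are therefore not separate measurements. For the 3 entries given, spermatogonia were 98.5-fold [80.1 to 122.8], 127.2-fold [100.3 to 164.1] and 120.7-fold [81.1 to 192.9] below primordial germ cells. mmur000208106 (1363, 44.6, 82.1, 38.3 and 90.2 RPM) and mmur000717676 (1317, 34.5, 59.3, 36.0 and 85.7 RPM) were also low in spermatogonia, and were higher than there in both spermatozoa and zygote.

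Some PIR members had few reads in spermatogonia and more in spermatozoa. PIR78555 stood at 621 RPM in primordial germ cells, 14.9 in spermatogonia and 204 in spermatozoa, with 0.689 for oocytes and 2.18 for zygotes. PIR69280 stood at 75.7, 0.140, 24.2, 0.207 and 0.838 RPM, with a single read in spermatogonia, and PIR56448 at 66.1, 0.218, 21.9, 0.413 and 1.68 RPM. Unscaled reads of these entries were nearly equal in primordial germ cells and spermatozoa. They were 3611 and 3724 for PIR78555, 440.5 and 440.7 for PIR69280, and 384.5 and 399.5 for PIR56448. The lead of primordial germ cells over spermatozoa thus rested on the scaling to piRNA reads. Some members had no read in 1 or more libraries. PIR36940 had 1181 reads in primordial germ cells (203 RPM), none in spermatogonia, 4 in spermatozoa, 66.0 for oocytes and none for zygotes, and was at least 484-fold higher in primordial germ cells than in spermatogonia, computed from a floor of 3 counts in that library (0.420 RPM). mmur000463023, with 198 reads (34.0 RPM), was the only member with no read in the other 4 libraries, which allows up to 0.420 RPM in spermatogonia and 0.165 in spermatozoa, with 0.207 for oocytes and 0.314 for zygotes. At the other extreme 887 of the 990 members had a value above 0 in all 5 libraries. Such a value can be less than 1 read, as for mmur000385365 with 0.15 in the zygote. Members at 0 numbered 31 in spermatogonia and 22 in spermatozoa, with 59 for oocytes and 56 for zygotes.

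Members seen in both early male stages and hardly in gametes were found as well. mmur000385365 stood at 758 RPM in primordial germ cells, with 208 for spermatogonia, against 0.209 in spermatozoa, 0.284 for oocytes and 0.0157 for zygotes, the last 3 resting on fewer than 5 reads each. The other 10 entries of its run, from mmur000385355, were likewise at most 0.284 RPM in those libraries. PIR44255 stood at 1497, 189, 3.22, 1.17 and 5.29 RPM, and PIR47943 at 1156, 502, 2.13, 0.551 and 1.34 RPM. Over all members, 322 of the 496 measured (64.9%) fell short of their spermatogonial level 4-fold or more in spermatozoa, where 60.1% of all 7013 measured entries were. At least 4-fold higher in spermatozoa were 20 members (4.03%), against 17.2% of all entries. In spermatogonia, 348 of 441 measured members (78.9%) were at least 4-fold above the oocyte, against 61.6% of 6672 entries. The rule capped each of these levels, so that neither count is independent of it.

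The difference between zygote and oocyte was not used by the rule, which took their mean. Of the 990 members 196 had 100 or more reads over both libraries, and these passed through their own egg reads. Their median log2 ratio of zygote to oocyte was 0.60, against 0.50 over all 4135 measured entries. Scaled to all 4 classes of small RNA, both medians turned sign, to -0.0017 and -0.10. At least 4-fold higher in the zygote were 5 members (2.55%), where 5.20% of all entries were, and at least 4-fold higher in the oocyte were 20 members (10.2%), where 5.03% were. All 5 higher in the zygote had PIR names, of 54 measured, and all 20 higher in the oocyte had mmur names, of 142 measured. Over all entries, 7.10% of 2438 PIR entries were 4-fold higher in the zygote and 2.26% in the oocyte, against 2.47% and 9.02% of 1697 mmur entries. The medians by kind of name did not follow these counts: the median log2 ratio was 0.40 for mmur members against -0.42 for all mmur entries, and 0.62 for PIR members against 0.86 for all PIR entries.

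The 5 members higher in the zygote came from 5 runs, and those given here were picked after their values were seen. PIR6623 had 8 reads in the oocyte (0.551 RPM) and 111 in the zygote (11.6 RPM), a ratio of 21.1 [10.3 to 50.04], beside 64.4 RPM in primordial germ cells and no read in spermatogonia or spermatozoa. PIR252908 stood at 4.65 RPM for oocytes and 34.8 for zygotes, 7.48-fold [5.70 to 9.78], beside 123 RPM in primordial germ cells. PIR58514, named above, had 4.54 times its oocyte level in zygotes [3.93 to 5.24]; the others were PIR254047 and PIR236878. The 20 members higher in the oocyte came from 15 runs and had ratios of 4.47 to 6.83. By the same criterion of near-equal reads in all 5 libraries they formed 9 sets, and 17 of the 20 fell into 6 sets of 2 to 4 entries, so they are not 20 or 15 separate measurements. They lay at 6.24 to 64.5 RPM in the oocyte, 1.095 to 14.4 in the zygote, 18.4 to 162 in primordial germ cells and 5.20 to 35.3 in spermatogonia. The highest ratio was that of mmur001102061, at 35.3 RPM in oocytes and 5.16 in zygotes. Their shares in primordial germ cells, 60.2% to 64.8%, were all close to the limit of the rule.

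**Figure D4:**
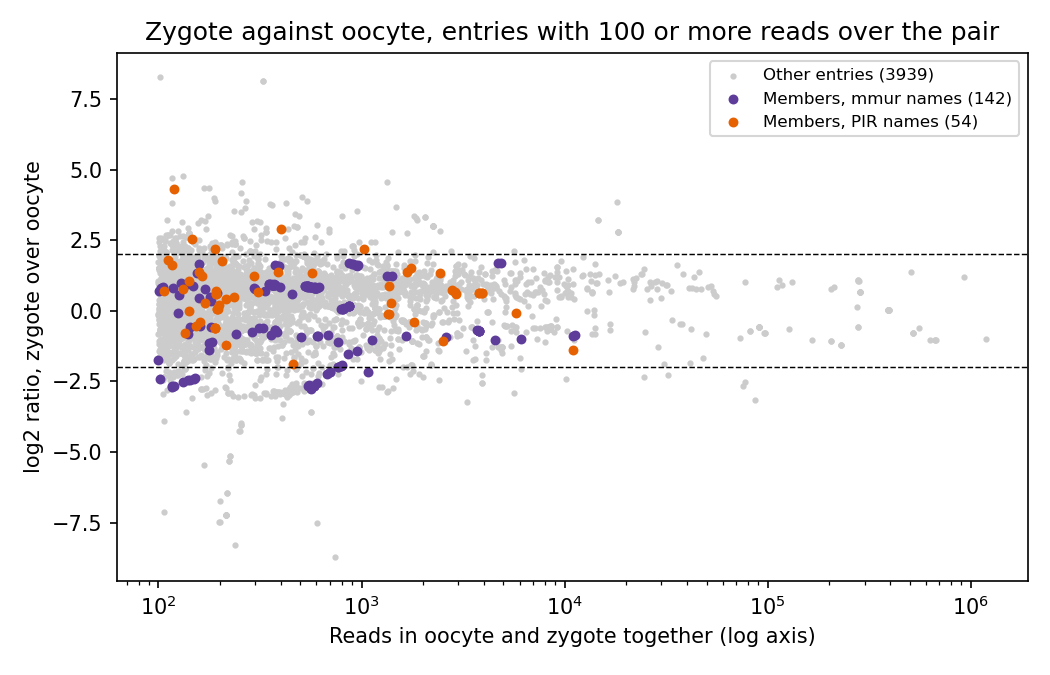
log2 ratio of zygote to oocyte (from RPM, with a pseudocount of 0.5 reads) against the reads of both libraries together on a log axis, for 4135 entries with 100 or more such reads; dashed lines mark 4-fold. The 142 mmur members include all 20 below the lower line, and the 54 PIR members include all 5 above the upper line.

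The lowest share inside it was that of mmur000574486 (60.01%, with 46.1 RPM for primordial germ cells and 26.5 for spermatogonia). Next came PIR68945 (60.04%, with 104 and 51.7) and mmur000622484 (60.06%, with 47.6 and 27.3). The 2 mmur entries had near-equal reads in all 5 libraries and may not be separate measurements. Just outside were PIR15244 (59.99%, with 172 RPM in primordial germ cells and 111 in spermatozoa), mmur000560166 (59.97%, with 25.3 and 12.4 in spermatogonia) and mmur000165430 (59.95%, with 81.7 and 23.6). Of the 990 members 441 had a share of 70% or more, 162 of 80% or more, 55 of 90% or more and 25 of 95% or more. How many entries met the rule rested on how libraries were scaled. With reads scaled to all 4 classes of small RNA together, in which piRNAs took 21.9% of reads in primordial germ cells but 83.4% in spermatozoa, 460 entries met it, and with the deposited normalised values 581.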

How the data were processed

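Small RNA libraries of primordial germ cells, spermatogonia, spermatozoa, oocytes and zygotes were analysed from the authors' deposited tables (1 library per cell type). The read column holds estimated counts as deposited, many not whole. A second column holds TMM-normalised signal values made by the authors, per the file headers; these were found to be the reads multiplied by a constant for each library. Bowtie 0.12.7, DESeq and mm10 are named without roles, per the submitters' processing notes. Their treatment of reads with several matches, which sets how often 1 read is counted, is not given in the sources used here.

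An entry absent from a table was taken as 0. Reads were scaled to 1000000 reads of the piRNA table. The log2 ratios and calls used a pseudocount of 0.5 reads and ratios of single entries none; called means 4-fold apart with 100 reads over the pair. Intervals are exact (Clopper-Pearson, or 2 Poisson counts conditional on their sum) at 95%, on rounded reads, and cover counting error only, since PCR copies are not independent molecules. Against 0 reads a fold was computed from 3 counts in that library. The members, lists and named entries were chosen with earlier results of these data known. Named were the 10 members with the most reads in primordial germ cells, the 3 nearest the limit on either side, the highest of each library and the 3 runs with the most reads; others are marked in the text. The marker miRNA miR-292a-3p was not matched by name. Positions, annotation and sequence features, planned at first, were not analysed here, since names carry none. Runs of consecutive numbers were used instead, and whether such numbers are neighbouring loci was not tested. Alternatives used edgeR 4.0.16 and DESeq2 1.42.0 only for scaling factors on rounded reads. The rule was run on simulated Poisson reads, at equal levels between libraries apart from entries raised in primordial germ cells. No reads were shared between entries there and the scaling was not varied, so the simulation says nothing of the count found here.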

Additional observations from a re-analysis of the deposited data

How the results depend on the processing

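The rule gave 990 entries. It gave 1573 with a minimum of 50 reads, 332 with 500 reads, 1646 with a share of 50%, 162 with 80%, 460 with all 4 classes scaled together, 581 with the deposited normalised values and 513 with runs counted once. Under edgeR's factors it gave 702 entries (662 of them among the 990), under DESeq2's 759 (603), with each library's 5 largest entries left out of the totals 810, and with oocyte and zygote as separate values 829. The share of primordial germ cell piRNA reads on the members was 18.0%. It was 16.5% with 500 reads, 23.2% with a share of 50%, 4.55% with 80% and 15.95% with oocyte and zygote separate. With edgeR's factors it was 15.9%, with DESeq2's 15.8%, with all 4 classes 11.9% and without the 5 largest members 14.6%. With runs counted once, by the largest entry of each, the value was 17.2%. Its runs of members held members only, while the runs of its total held all listed entries without a chrM mark. It is therefore no exact share.

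The median log2 ratio of spermatogonia to primordial germ cells, -1.74, was -1.64 with a pseudocount of 5, -2.15 with edgeR's and -2.69 with DESeq2's factors, -1.43 with all 4 classes, -1.98 with the deposited values and -1.93 with runs counted once. The median over all entries was 0.69, and -0.26 with DESeq2's factors. The median zygote to oocyte ratio, 0.60, was 0.46 with edgeR's and 0.76 with DESeq2's factors, 0.47 without the most abundant entries, 0.54 with the deposited values, 0.43 with a minimum of 20 reads (0.097 over all entries, against 0.50) and 0.49 with runs counted once. It was -0.0017 with all 4 classes, where that of all entries was -0.10. The cause of these shifts was not tested. No paired analysis was possible because each cell type has 1 library. Annotation alternatives were not run, since entry names carry no positions. The deposited values, the zygote alternatives and runs counted once for shares and medians were chosen after seeing the data. Of the 990 members, 196 had enough reads for a zygote to oocyte ratio.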
